A study of Mus musculus with 37 samples.

Results

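The genes described here encode the proteins of the cytoplasmic ribosome and were followed in bone marrow-derived macrophages (BMDMs) from wild-type (WT) and Arntl-/- mice through the response to Kdo2-lipid A (KLA). They were chosen by symbol alone, as Rpl or Rps followed by a digit together with Rplp0, Rplp1, Rplp2 and Rpsa, which gave 87 of the 24016 genes in the expression table. The choice left out 6 rows of ribosomal pseudogenes and 10 rows of Rps6k kinases. Of the 87 genes, 77 encode the core proteins of the ribosome, 46 of the large and 31 of the small subunit. The other 10 are 9 paralogs or near copies of core genes, namely Rpl3l, Rpl7l1, Rpl10l, Rpl22l1, Rpl36al, Rpl39l, Rps4l, Rps27l and Rps27rt, and Rps19bp1, which encodes a protein that binds a ribosomal protein and is not itself part of the ribosome. PolyA RNA was sequenced from 8 conditions, WT and Arntl-/- BMDMs at 0, 6, 24 and 48 h of KLA, with 1 library for each. Donors were male C57BL/6J and Arntl-/- mice of 6 to 9 weeks. The paper states a C57BL/6 background for the knockout and calls the WT mice littermate controls. The knockout lacks Arntl (Bmal1) in every tissue, and marrow was cultured with M-CSF for 6 days in both genotypes. Whether marrow of several mice was pooled was not given in the sources used here. Because no condition was repeated, the differences below have no replicate check and no p-value is given. A gene is counted as higher or lower when 2 libraries differ by at least 1.5-fold, and the share of all 9134 analyzed genes that did so is given as the background of each comparison.

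A ribosome is built from ribosomal RNA and one copy of nearly every ribosomal protein, so cells make the proteins in matched amounts. The small subunit binds the messenger RNA and decodes it, and the large subunit joins the amino acids and passes the chain out through its exit tunnel. The messenger RNAs of ribosomal proteins are short, abundant and stable, and most begin with a C followed by a run of pyrimidines, the 5′ terminal oligopyrimidine (TOP) tract, through which mTOR signaling controls their translation. KLA is a defined part of lipopolysaccharide that activates Toll-like receptor 4, and Arntl encodes Bmal1, a transcription factor of the circadian clock.

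The TOP tract was looked for around the start of each annotated transcript in the mm9 genome, as a C followed by at least 4 bases that are each C or T, on the strand of the gene only. The first bases of the annotated transcript matched in 13 of the 77 core genes (16.9%), against 2.34% of the 23867 other genes with a window. In 2 of these 13 core genes the base before the start is A or G, and in the others the pyrimidines go on upstream of the annotated start. A match with its C within 10 bases on either side of the start was present in 44 core genes (57.1%), against 30.3% of the other genes. By subunit, the first bases matched in 8 of the 46 large subunit genes and 5 of the 31 small subunit genes. The sequences are shown for 7 of these genes that also appear in the comparisons below, then for Rpl39, where the match nearest the start has its C 1 base before it, and last for Rpl24 and Rps29, which hold no match in the window. Each line gives the 20 bases before the annotated start and the first 10 bases of the transcript, 5′ to 3′. Capitals mark the match nearest the annotated start, extended to the last pyrimidine downstream, and pyrimidines just before it are left in lower case.
Rpl11, chr4:135609277-135609306, minus strand: ggggccggaagtctccctctCTCTTCCTgt
Rpl32, chr6:115758752-115758781, minus strand: cgcgccgccgccgcctcttcCTTCTTCCTC
Rpl35, chr2:38860642-38860671, minus strand: gaagtcggccccgccctttcCTCTTTCTCT
Rplp2, chr7:148633530-148633559, plus strand: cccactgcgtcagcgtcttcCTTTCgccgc
Rps20, chr4:3762738-3762767, minus strand: cccggcgccgtccggcccctCCTTTCTgag
Rps27, chr3:90017561-90017590, minus strand: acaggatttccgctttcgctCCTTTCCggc
Rps28, chr17:33961434-33961463, minus strand: ggcatcccctgctcacgtgaCTCCTCTCCg
Rpl39, chrX:34625170-34625199, minus strand: gcgttcttccggtcccggcCTTTCTCTTCT
Rpl24, chr16:55966369-55966398, plus strand: aggaagaaagctgttgctaggaaacagact
Rps29, chr12:70260164-70260193, minus strand: ctcagagcacgcggaccaatgttgtcgcac
The annotated starts are those of the deposited table, and a window without the run says only that these letters are absent there.

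The RNA of all 8 libraries carried the macrophage markers. The summed level of Csf1r, Emr1, Cd68, Lyz2, Itgam, Mertk and Fcgr1 was between 13630 and 34703 FPKM (fragments per kilobase of exon, per 10000000 reads in this table, scaled between libraries). Markers of T cells (at most 14.8 FPKM summed over 4 genes), B cells (at most 15.0 over 4 genes) and dendritic cells (at most 3.01 over 3 genes) were near 0, and Cd3e and Cd3g were listed at 0 in every library. Of the neutrophil markers, Mpo was listed at 0 throughout while S100a8 lay between 282 and 910 FPKM. Fibroblast collagen and decorin genes summed to between 297 and 1066 FPKM, and both S100a8 and this sum were highest at 48 h in each genotype. Their part in the results was not tested. Arntl itself was at 32.3 to 38.7 FPKM in the WT libraries and at 11.3 to 20.2 FPKM in the Arntl-/- libraries, 75 to 136 reads, so exonic reads of the gene remained in the knockout. Depth was unequal, from 8587560 to 27036783 reads on genes, and is taken up below because the ribosomal protein levels moved with it. In bulk RNA, fewer cells of a type and less RNA per cell cannot be told apart, and FPKM measures a gene's part of the polyA RNA and not its amount per cell.

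The core ribosomal protein genes lay far above the typical gene in every library. Their median level in WT BMDMs was 1337, 869, 1494 and 1842 FPKM at 0, 6, 24 and 48 h of KLA, and in Arntl-/- BMDMs it was 1035, 1331, 1218 and 1850 FPKM. The median of all analyzed genes stayed between 133 and 142 FPKM, by construction of the scaling. All 77 core genes had their lowest value in the WT library at 6 h, and the highest was in the WT library at 48 h for 46 genes and in the Arntl-/- library at 48 h for 31. The 77 genes together took 0.895% of the gene reads in the WT library at 6 h (95% Wilson interval 0.891 to 0.898%) and 1.52% in the Arntl-/- library at 48 h (1.51 to 1.52%), intervals that cover counting error only.

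**Figure D1:**
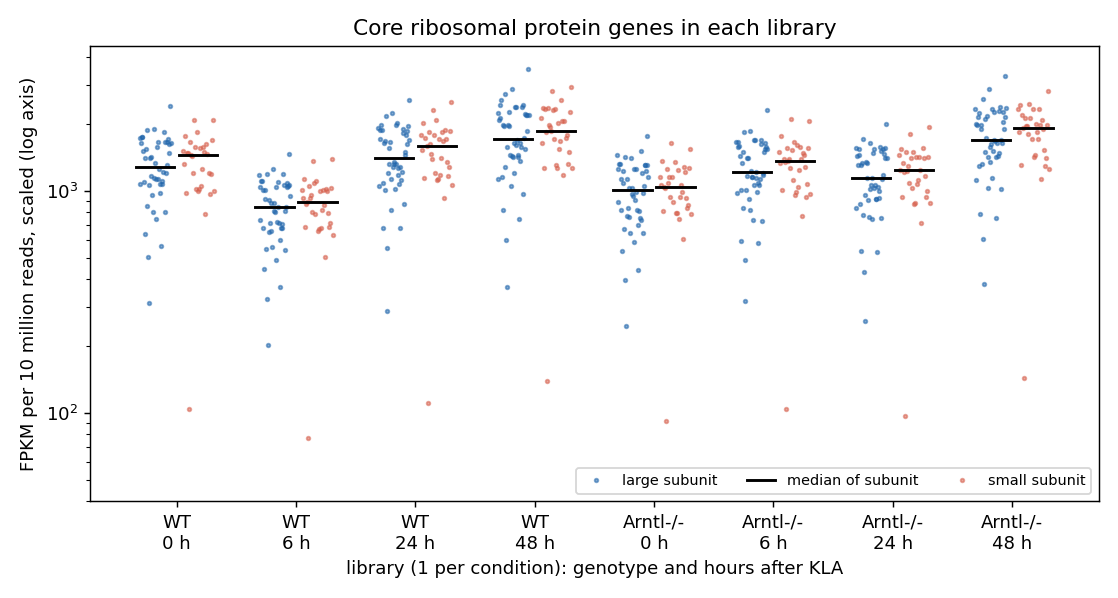
Levels of the 77 core ribosomal protein genes in the 8 libraries, with FPKM on a log axis and 1 point per gene, large subunit genes in blue, small subunit genes in red and black bars at the subunit medians. The whole set lies lowest in the WT library at 6 h, where the median is 869 FPKM, and highest in both 48 h libraries (1842 and 1850 FPKM), and the low point in each library is Rps15a.

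The 5 genes with the highest mean level were Rplp1, Rps9, Rps2, Rpl28 and Rpl19. Rplp1, an acidic protein of the flexible stalk that recruits translation factors, was measured at 2418, 1463, 2560 and 3558 FPKM at 0, 6, 24 and 48 h in WT and at 1759, 2314, 2012 and 3281 FPKM in Arntl-/- BMDMs. Rps2, which lines the entry of the messenger RNA channel, was at 2097, 1364, 2314 and 2816 FPKM in WT and at 1651, 2107, 1800 and 2466 FPKM in Arntl-/- BMDMs. Both genes dipped at 6 h in WT and were lowest at 0 h in Arntl-/-, as was the case for the median of the set. At the other end were Rps15a, with a mean level of 108 FPKM, and Rpl22, with 297 FPKM. The table kept a Rps15a transcript of 5127 bases, the longest of the core genes, whose lengths start at 279 bases, and a level per length is low for a long model whatever the number of reads. Ribosomal protein genes have many near-identical processed pseudogenes, so the reads assigned to any one of them are uncertain to the extent that reads were shared between copies, and reads were counted on both strands.

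The comparison between genotypes sets the Arntl-/- library against the WT library of the same time. These libraries also differed in depth, with ratios of 1.39, 0.572, 1.44 and 0.934 at 0, 6, 24 and 48 h, and the part of depth was not tested. At 0 h all 77 core genes were lower in the Arntl-/- library, with a median log2 ratio of -0.37 and a range from -0.70 to -0.17, while the median of all analyzed genes was -0.02. At the 1.5-fold limit 2 core genes were lower and none was higher, where 1.34% of all genes were lower and 1.74% higher. At 6 h the order was turned, and all 77 were higher in Arntl-/- BMDMs, with a median of 0.58 and a range from 0.39 to 0.72, against 0.02 for all genes. Of them, 37 passed 1.5-fold upward and none downward, where 1.8% of all genes were higher and 1.39% lower. By 24 h all 77 were again lower in Arntl-/-, with a median of -0.33 and a range from -0.48 to -0.10, against -0.01 for all genes. None passed 1.5-fold in either direction, where 1.95% of all genes were higher and 1.78% lower. By 48 h, with 31 core genes above and 46 below equality, the median was -0.02 and the range -0.23 to 0.26. No core gene passed 1.5-fold there, where 3.43% of all genes were higher and 4.19% lower. The sign of this last median depends on the scaling, being 0.02 in the values as deposited, where the core medians of the other comparisons kept their signs. As deposited, the median of all analyzed genes itself lay away from 0, from -0.18 (Arntl-/- at 48 against 0 h) to 0.11 (WT at 6 against 0 h), and differences between the core genes and all genes are free of that shift.

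**Figure D2:**
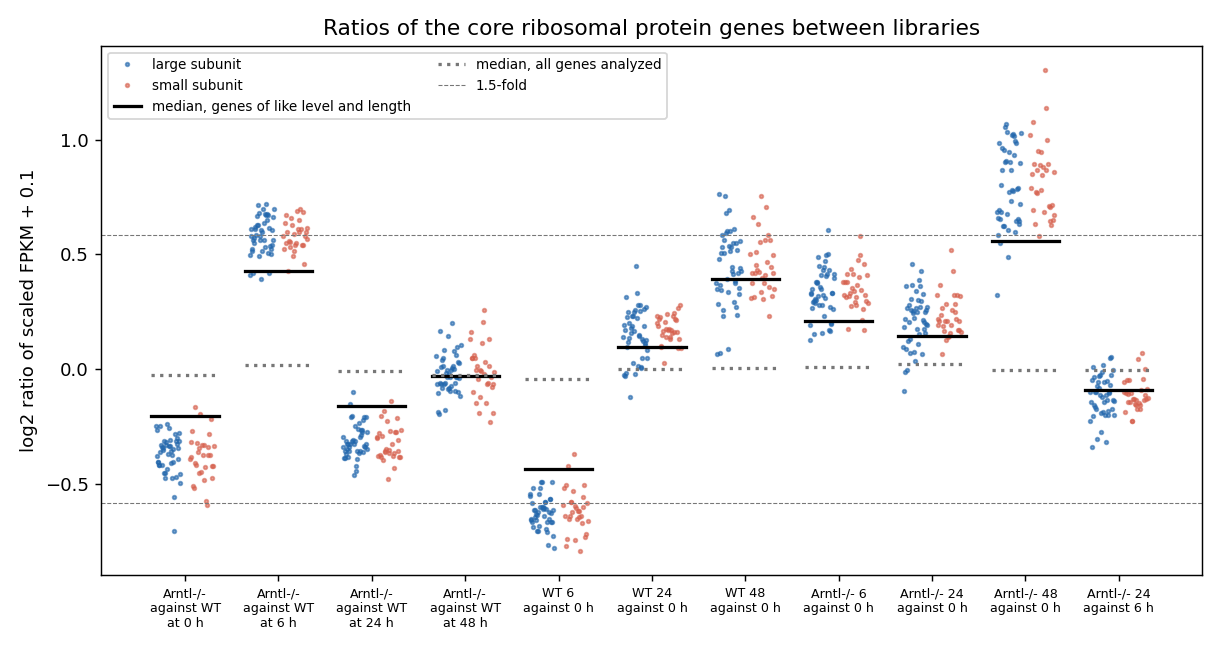
Log2 ratios between libraries for the 77 core genes, 1 point per gene with the large subunit in blue and the small subunit in red, the black bar at the median of 112 genes of like level and length and the dotted bar at the median of all 9134 analyzed genes. The points form 1 narrow group in each comparison, below the 1.5-fold line for most genes at 6 against 0 h in WT (median -0.62) and around 0 between genotypes at 48 h (median -0.02).

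The 2 core genes lower by 1.5-fold at 0 h were Rpl39 and Rps29, whose start sequences are given above. Rpl39, a small protein lining the exit tunnel (chrX:34622516-34625179), was at 1211, 711, 1219 and 1580 FPKM in WT and at 743, 1132, 999 and 1479 FPKM in Arntl-/- BMDMs. Its log2 ratio between genotypes was -0.70 at 0 h and 0.67 at 6 h, so it was at the low extreme of the set at 0 h and among the higher genes at 6 h. Rps29, a zinc-binding protein of the head of the small subunit (chr12:70258710-70260173), was at 1493, 863, 1670 and 2064 FPKM in WT and at 990, 1397, 1239 and 1976 FPKM in Arntl-/- BMDMs. Its ratio was -0.59 at 0 h and 0.70 at 6 h. The smallest differences at 0 h were those of Rps15a (-0.17) and Rps21 (-0.20).

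The 37 core genes higher by 1.5-fold at 6 h comprised 22 of the large and 15 of the small subunit. The large subunit genes included Rpl8, Rpl11, Rpl19, Rpl22, Rpl23, Rpl23a, Rpl24, Rpl26, Rpl29, Rpl31, Rpl32, Rpl35, Rpl36, Rpl36a, Rpl37, Rpl37a, Rpl38, Rpl39, Rpl41, Rplp1 and Rplp2. The small subunit genes included Rps2, Rps3, Rps12, Rps14, Rps15, Rps19, Rps23, Rps26, Rps27, Rps27a, Rps28, Rps29 and Rpsa. The highest ratios were those of Rpl36a (0.72) and Rpl24 (0.72), and Rpl24, which forms a bridge to the small subunit, was at 713 FPKM in the WT and at 1172 FPKM in the Arntl-/- library. The lowest were those of Rpl3 (0.39), which reaches toward the peptidyl transferase center, and Rpl10a (0.41), the protein of the L1 stalk at the exit site for transfer RNA. The limit cut through the middle of a narrow spread, since the median itself lay at 0.58 and the limit is 0.58 on the log2 scale.

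At 24 h the lowest ratios between genotypes were those of Rps23 (-0.48), a protein of the decoding center, and Rpl28 (-0.46), and those nearest to 0 were Rpl27a (-0.10) and Rps27 (-0.14). At 48 h the spread about the median was of both signs, with Rps27 (0.26) and Rps25 (0.20) highest and Rpl13a (-0.20) among the lowest. Averaged over the 4 times, the log2 ratio of Arntl-/- to WT was highest for Rps27 (0.061), Rpl22 (0.055) and Rpl23a (0.048) and lowest for Rpl13a (-0.117), Rps28 (-0.113) and Rps20 (-0.107). Relative to the core median, Rpl22, Rpl23a and Rpsa lay above it at all 4 times and Rpl12, Rpl13, Rpl13a, Rps7, Rps9 and Rps20 at none. At 6 h the 13 genes whose first bases matched the TOP motif had a median ratio of 0.61 and the other 64 a median of 0.58. A match within 10 bases of the annotated start was present in 44 core genes. The split therefore follows the annotated start and does not separate genes with a TOP tract from genes without one.

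In WT BMDMs each later library was compared with that of 0 h. The depth ratios to 0 h were 2.07, 0.817 and 0.703 at 6, 24 and 48 h, and the part of depth was not tested. At 6 h all 77 core genes were lower, with a median log2 ratio of -0.62 and a range from -0.79 to -0.37, against -0.04 for all genes. This passed 1.5-fold for 54 core genes, 33 of the large and 21 of the small subunit, where 3.24% of all genes were lower and 3.83% higher. Rps29 (-0.79) and Rplp2 (-0.78), a partner of Rplp1 in the stalk, were lowest, and Rps21 (-0.37) and Rps15a (-0.42) were nearest to 0. At 24 h the median was 0.17, 72 genes lay above 0, and none passed 1.5-fold, where 7.62% of all genes were higher and 7.24% lower. After 48 h all 77 lay above 0 with a median of 0.43, and 12 passed 1.5-fold upward and none downward, where 12.3% of all genes were higher and 13.6% lower. The share of core genes that were higher was then near that of all genes, although their median was not.

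In Arntl-/- BMDMs the median of the core genes lay above that of 0 h at every later time. The depth ratios to 0 h were 0.851, 0.845 and 0.473 at 6, 24 and 48 h, and the part of depth was not tested here either. At 6 h all 77 lay above 0, with a median of 0.33 and a range from 0.13 to 0.61, and 1 of them, Rpl39 (0.61), passed 1.5-fold, where 2.55% of all genes were higher and 2.03% lower. Next to Rpl39 was Rps28 (0.58), a protein at the exit of the messenger RNA channel, and Rpl10a (0.13) and Rpl15 (0.15) were lowest. At 24 h the median was 0.22, 74 genes lay above 0, and none passed 1.5-fold, where 7.13% of all genes were higher and 8.09% lower. After 48 h the median was 0.79, with a range from 0.32 to 1.30, and 72 of the 77 passed 1.5-fold upward and none downward, where 14.6% of all genes were higher and 15.9% lower. Rps27 (1.30) was highest, at 750 FPKM at 0 h and 1850 FPKM at 48 h, and Rpl10a (0.32) was lowest, at 894 and 1119 FPKM. The WT and Arntl-/- series each refer to their own 0 h library, so the ratios of a genotype at 6, 24 and 48 h share that library.

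A lower limit of 1.2-fold in either direction was also counted, since the core genes lay close together. Between genotypes it was passed by 70, 77, 62 and 0 core genes at 0, 6, 24 and 48 h, where 25.3%, 27.2%, 25.9% and 34.2% of all genes passed it. Against 0 h in WT it was passed by 77, 8 and 70 core genes at 6, 24 and 48 h, where 37.2%, 44.9% and 57.6% of all genes passed it. In Arntl-/- BMDMs the counts were 64, 26 and 77, where 30.0%, 44.9% and 61.6% of all genes passed it.

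These levels followed the depth of the libraries. From the deepest to the shallowest, the reads on genes and the core medians were 27036783 reads and 869 FPKM (WT 6 h), 18166576 reads and 1035 FPKM (Arntl-/- 0 h), 15461830 reads and 1331 FPKM (Arntl-/- 6 h) and 15350455 reads and 1218 FPKM (Arntl-/- 24 h). They went on with 13080318 reads and 1337 FPKM (WT 0 h), 10685710 reads and 1494 FPKM (WT 24 h), 9191164 reads and 1842 FPKM (WT 48 h) and 8587560 reads and 1850 FPKM (Arntl-/- 48 h). Apart from the order of the Arntl-/- libraries at 6 and 24 h, which differ by little in depth, a deeper library had a lower median. The 6 h library of WT held 2.07 times the reads of the 0 h library, and the typical analyzed gene had 2.24 times the reads, but the typical core gene only 1.5 times. Between genotypes at 6 h the depth ratio was 0.572, the reads of the typical gene stood at 0.526 and those of the typical core gene at 0.777. Counting was limited to 3 tags at a position, and the core genes carried a median of 2.38 to 4.24 reads per exonic base in a library, against 0.171 to 0.692 for all genes. Rplp1 carried 5.13, 7.15, 4.29 and 4.75 reads per base in WT and 5.49, 5.88, 5.04 and 4.21 in Arntl-/- BMDMs. More than 3 reads per base were found for 66 of the 77 core genes in the WT library at 6 h and for 11 in the Arntl-/- library at 48 h. Since values reached 7.15, 3 reads per base was not a ceiling and does not mark the genes that the limit affected. The part of depth and of the limit in the results was not tested.

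Between genotypes at 48 h, with a depth ratio of 0.934, the core median was -0.02. Between 24 and 6 h in Arntl-/- BMDMs, a comparison chosen after the data were seen because the depth ratio is 0.993, it was -0.12, with 70 of the 77 core genes lower, a range from -0.34 to 0.07 and no gene past 1.5-fold, where 4.67% of all genes were higher and 4.94% lower. Relative to all genes this median was -0.117, and it was 0.0041 after a correction for exon length, so that its direction was lost, and -0.079 after one for expression level.

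**Figure D3:**
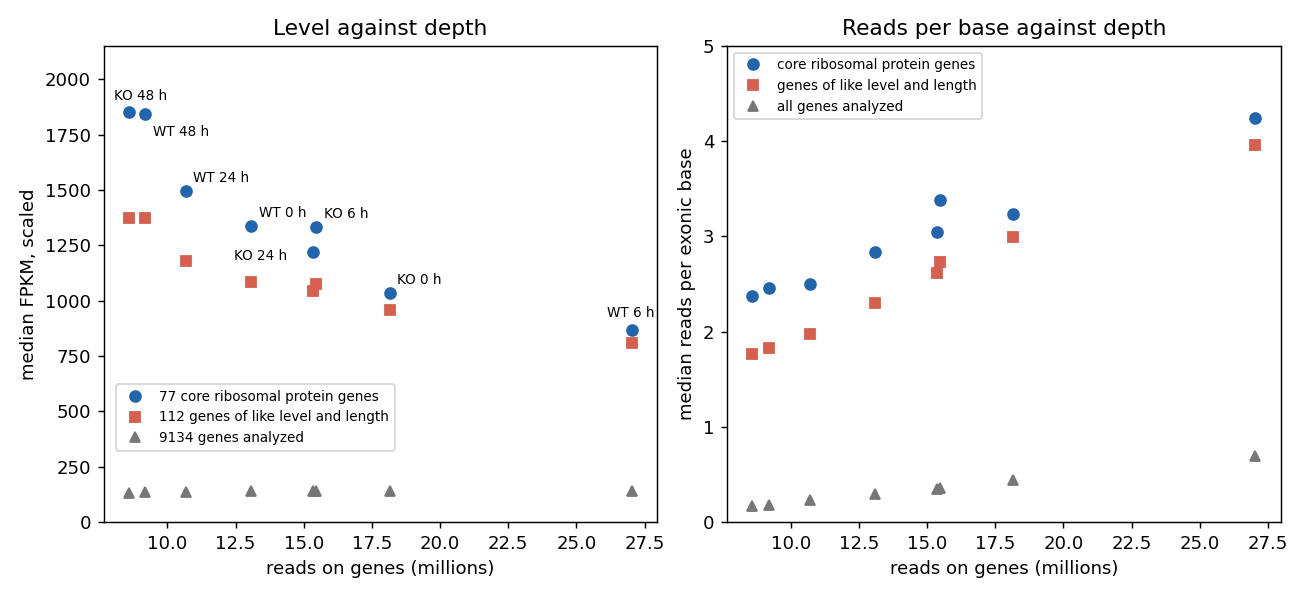
Median FPKM (left) and median reads per exonic base (right) of the core genes, of 112 genes of like level and length and of all analyzed genes, against the reads on genes of each of the 8 libraries, where KO stands for Arntl-/-. The core median runs from 1850 FPKM in the shallowest library to 869 FPKM in the deepest, the genes of like level and length run the same way, and the median of all genes stays level.

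Other genes of like level and length moved the same way, by less in most comparisons. This set held the 112 genes outside the ribosomal proteins whose mean level (798 to 1725 FPKM) and exon length (439 to 1396 bases) lay between the 10th and the 90th percentile of the core genes. At 6 against 0 h in WT its median was -0.44 where the core median was -0.62, and 16 of its genes (14.3%) were lower by 1.5-fold. Between genotypes at 6 h it was 0.43 where the core median was 0.58, with 12 genes (10.7%) higher. At 48 against 0 h it was 0.39 in WT and 0.56 in Arntl-/-, where the core medians were 0.43 and 0.79. The distance in WT was turned to -0.0049 by the correction for expression level described next and to -0.067 for the 2 core genes under 1 read per base. Between genotypes at 0 and 24 h the set had medians of -0.20 and -0.16, where the core medians were -0.37 and -0.33. The distance between core genes and this set was therefore largest in Arntl-/- at 48 h (0.23) among the comparisons made, and 0.01 between genotypes at 48 h. After each library was corrected for expression level by a lowess curve over all genes, the core genes differed from all genes by -0.16 in place of -0.58 at 6 against 0 h in WT and by 0.16 in place of 0.56 between genotypes at 6 h. The same correction gave 0.055 in place of 0.42 at 48 against 0 h in WT and 0.23 in place of 0.79 in Arntl-/-. Between genotypes at 0 and 24 h it gave -0.14 and -0.14 in place of -0.35 and -0.32. These 6 values kept their sign. The values at 6 and 24 against 0 h in Arntl-/- also became smaller after this correction and are given in the last section.

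Short core genes moved more than long ones in several comparisons. Across the 77 genes, which share libraries and are not replicates, the log2 ratio and the log2 exon length had a Pearson correlation of -0.62, -0.43 and -0.54 at 6, 24 and 48 against 0 h in Arntl-/-. Over the 9051 other analyzed genes these values were -0.20, -0.049 and -0.15. Between genotypes it was 0.52, -0.46, 0.14 and -0.014 at 0, 6, 24 and 48 h, against 0.055, -0.22, 0.033 and -0.024 over the other genes. In WT it was 0.27, -0.096 and -0.29 at 6, 24 and 48 against 0 h, against 0.033, -0.038 and -0.13. The transcripts of Rpl39 and Rps29, at the low end at 0 h, are 389 and 385 bases long.

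The subunits had nearly equal medians. The median of the large subunit genes minus that of the small subunit genes lay between -0.060 (Arntl-/- at 48 against 0 h) and 0.022 (between genotypes at 0 h) over all comparisons. At 6 against 0 h in WT the medians were -0.62 for both, and between genotypes at 6 h they were 0.58 for both. Groups formed by position in the ribosome, from known structure, lay farther apart than the subunits. The stalk and its base (Rplp0, Rplp1, Rplp2 and Rpl12) had median ratios between genotypes of -0.43 at 0 h and 0.62 at 6 h. Rpl5 and Rpl11, which join 5S ribosomal RNA and can bind Mdm2, had ratios between genotypes of -0.31 and -0.38 at 0 h and of 0.42 and 0.61 at 6 h. At 48 against 0 h in Arntl-/- the proteins bridging to the small subunit (Rpl19, Rpl24, Rpl30 and Rpl41) and those of the beak (Rps10, Rps12, Rps27a and Rps29) had medians 0.14 above the core median, with ranges from 0.77 to 1.05 and from 0.85 to 1.02. Rpl5 and Rpl11 had a median 0.14 below it there, at 0.65 and 0.66. Each group holds 2 to 8 genes, and no group median lay farther than 0.143 from the core median in any comparison. That distance was at 48 against 0 h in Arntl-/-, where the standard deviation over the 77 single genes was 0.17. Medians of so few genes vary more than those of the subunits.

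Single members lay to 1 side of the set at 48 against 0 h in both genotypes, and the examples were picked after their values were seen. Rpl10a (chr17:28465417-28467978) was at 1075, 736, 1057 and 1126 FPKM in WT and at 894, 977, 836 and 1119 FPKM in Arntl-/- BMDMs. It was lowest of the 77 genes in its ratio to 0 h at 48 h in both genotypes, at 0.07 in WT and 0.32 in Arntl-/-, which is 0.36 and 0.47 below the core medians. Rpl3 lay 0.34 and 0.19 below the core medians at 48 h. Above them were Rps28 (chr17:33959983-33961443), by 0.28 in WT and 0.35 in Arntl-/-, and Rpl24, by 0.33 and 0.26. At 6 against 0 h in WT these genes were close to the core median and on its other side, with distances of 0.08 for Rpl10a, 0.02 for Rpl3, -0.02 for Rps28 and -0.08 for Rpl24. In Arntl-/- at 6 against 0 h they lay on the same side as at 48 h, at -0.20, -0.17, 0.25 and 0.16. Rps28 was at 1578, 1011, 1851 and 2578 FPKM in WT and at 1059, 1584, 1423 and 2328 FPKM in Arntl-/- BMDMs. Rpl13a (chr7:52380934-52384115), which is known to leave the ribosome in interferon-activated monocytes and restrain translation of inflammatory messages, was at 1509, 1007, 1876 and 2562 FPKM in WT and at 1130, 1440, 1451 and 2236 FPKM in Arntl-/- BMDMs. Its ratio to 0 h at 48 h was 0.76 in WT, where it was the highest of the 77 genes, and 0.98 in Arntl-/-. Over the 77 genes the ratios to 0 h of WT and Arntl-/- had a Pearson correlation of -0.40 at 6 h, 0.49 at 24 h and 0.71 at 48 h, against 0.27, 0.79 and 0.85 over 9051 other genes, as a description over genes measured in the same 4 libraries.

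The paralogs differed from the core genes and from each other. Of the 9 paralogs and Rps19bp1, 6 passed the filter on low values, and Rpl3l, Rpl10l, Rpl39l and Rps4l did not. Rpl10l had 0 reads in every library and Rpl3l, a muscle paralog of Rpl3, had at most 6. Rps27rt is annotated at the same place as Rps27, so its 1050 FPKM at 0 h in WT overlap with the reads of Rps27 and are not treated as a separate measurement. Rpl36al, the paralog of Rpl36a, was at 1029, 719, 958 and 1292 FPKM in WT and at 821, 922, 903 and 1255 FPKM in Arntl-/- BMDMs. It was below its 0 h level at 24 h in WT (-0.10), where the core median was above it (0.17), and its other ratios to 0 h had the signs of the core medians. Rpl7l1 kept between 234 and 292 FPKM over all libraries, and its ratio was -0.11 at 6 against 0 h in WT. Rps19bp1 lay between 165 and 270 FPKM.

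Rpl22l1, the paralog of Rpl22, and Rps27l, a p53 target related to Rps27, differed from their partners most in WT for Rpl22l1 and at 48 h for Rps27l. Rpl22l1 (chr3:28704434-28706337) was at 210, 228, 283 and 363 FPKM in WT and at 181, 218, 204 and 331 FPKM in Arntl-/- BMDMs. Its ratio at 6 against 0 h in WT was 0.11 (exact 95% counting interval -0.12 to 0.35), where Rpl22 had -0.63, and at 24 h it was 0.43 where Rpl22 had -0.12. In Arntl-/- the ratios were closer, at 0.27 for Rpl22l1 and 0.37 for Rpl22 at 6 h and at 0.18 and 0.07 at 24 h. At 48 h Rpl22l1 had 0.79 in WT and 0.87 in Arntl-/-, past 1.5-fold in both, where Rpl22 had 0.23 and 0.62. Rps27l was at 809, 578, 750 and 733 FPKM in WT and at 669, 753, 733 and 862 FPKM in Arntl-/- BMDMs. At 48 against 0 h it had a ratio of -0.14 in WT and 0.37 in Arntl-/-, where Rps27 had 0.56 and 1.30. At 24 h the ratios were -0.11 and 0.13 for Rps27l and 0.17 and 0.52 for Rps27. These intervals cover counting error only.

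Rpl39l, the paralog of the tunnel protein Rpl39, had a course of its own at a low level. It was at 22.4, 16.1, 2.98 and 5.62 FPKM in WT (38, 63, 4 and 6 reads) and at 17.2, 5.90, 2.99 and 3.89 FPKM in Arntl-/- BMDMs (43, 12, 6 and 4 reads). Both genotypes had their highest level at 0 h and a lower one at 24 and 48 h. The log2 ratio at 24 against 0 h was -2.91 in WT (exact 95% counting interval -4.86 to -1.43) and -2.52 in Arntl-/- (-4.05 to -1.28), without a pseudocount. At 6 h the genotypes differed by -1.45 (-2.48 to -0.54), on 12 and 63 reads. Rps4l, annotated as a pseudogene related to Rps4x (chr6:148303179-148304118), lay between 47.1 and 58.2 FPKM in 7 libraries and at 11.6 FPKM in the Arntl-/- library at 48 h, on 14 reads. Its ratio between genotypes there was -2.04 (-3.0 to -1.19). Reads of Rps4l and of near-identical copies of Rps4x cannot be told apart with certainty in these counts.

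**Figure D4:**
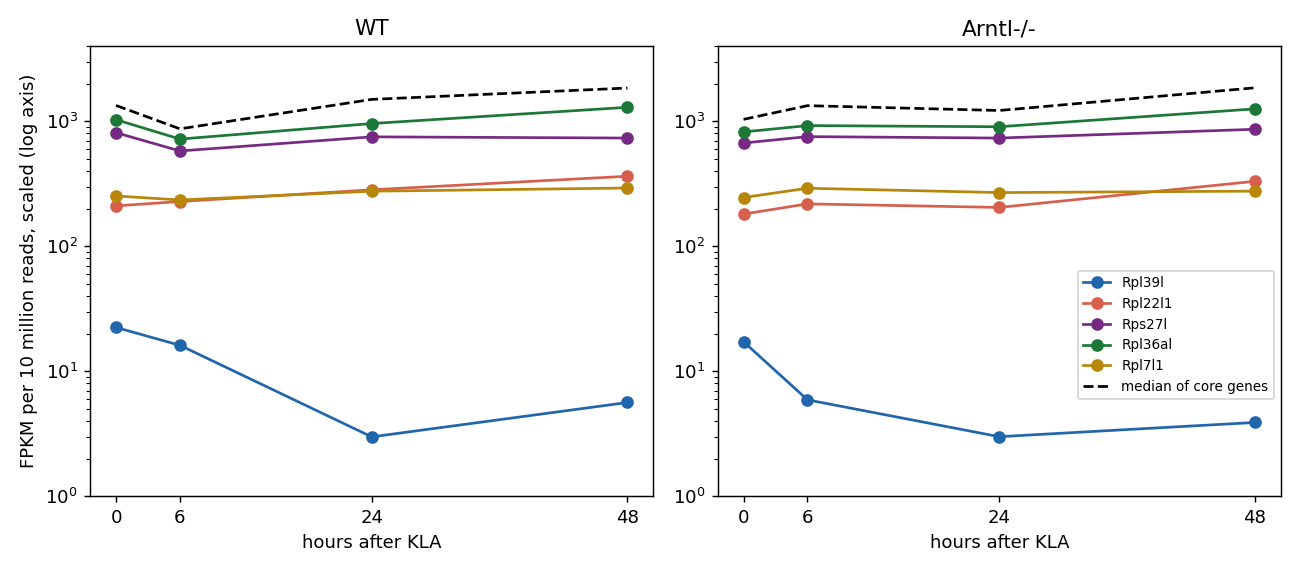
Levels of 5 paralogs of ribosomal protein genes against hours after KLA in WT (left) and Arntl-/- (right) BMDMs, in FPKM on a log axis with 1 library per point, and the median of the core genes as a dashed line. Rpl36al runs below the core median in all 8 libraries, while Rpl39l goes from 22.4 to 2.98 FPKM between 0 and 24 h in WT and from 17.2 to 2.99 FPKM in Arntl-/-.

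Genes that work with the ribosome were followed in 3 further lists and a few single genes. Ribosomal proteins that the symbol rule does not reach took the same directions as the core genes at 6 h. Fau, which encodes a ribosomal protein fused to a ubiquitin-like protein, had a ratio of -0.65 at 6 against 0 h in WT and of 0.66 between genotypes at 6 h, both past 1.5-fold. Gnb2l1, which encodes the scaffold RACK1 on the small subunit, had -0.50 and 0.45. The 22 translation factors had a median of -0.47 at 6 against 0 h in WT, where 5 were lower by 1.5-fold, namely Eef1a1, Eef2, Eif5a, Pabpc1 and Tpt1, and none was higher, against 3.24% of all genes lower and 3.83% higher. Between genotypes at 6 h their median was 0.43 and 1 was higher by 1.5-fold, against 1.8% of all genes, namely Tpt1 (0.62), a message with a TOP tract, which was at 1367 FPKM in WT and 2102 FPKM in Arntl-/- BMDMs. At 48 against 0 h in WT 1 of them, Tpt1 (0.66), was higher and none was lower, against 12.3% and 13.6% of all genes, with a median of 0.12. In Arntl-/- at 48 h 6 were higher and none lower, against 14.6% and 15.9% of all genes, with a median of 0.29.

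The ribosome biogenesis genes had negative medians at 24 and 48 against 0 h, where those of the core genes were positive. This list of nucleolar and processing factors held 40 genes, of which 39 are in the table and 38 passed the filter. At 24 against 0 h 13 were lower by 1.5-fold and none was higher in WT (median -0.47), and 13 were lower and none higher in Arntl-/- (median -0.44), against 7.24% and 8.09% of all genes lower. At 48 h 18 were lower and none higher in WT (median -0.54), and 23 were lower and none higher in Arntl-/- (median -0.69), against 13.6% and 15.9% of all genes lower. At 6 h the medians were -0.10 in WT and 0.045 in Arntl-/-, close to those of all genes (-0.04 and 0.009) and far from the core medians (-0.62 and 0.33). In WT 1 gene was lower, where 3.24% of all genes were, namely Ncl, the nucleolar protein nucleolin. Ncl was also the member higher in Arntl-/- than in WT at 6 h (0.59), where 1.8% of all genes were higher, and the table kept a transcript model of 8241 bases for it. Nop56, a core protein of the box C/D snoRNPs that guide ribosomal RNA methylation, was at 438, 364, 276 and 205 FPKM in WT and at 432, 388, 235 and 137 FPKM in Arntl-/- BMDMs. Its partner Nop58 was at 220, 205, 152 and 121 FPKM in WT and at 204, 218, 106 and 56.4 FPKM in Arntl-/- BMDMs. Both declined over the 4 times in WT, while the core ribosomal proteins were highest at the end. Between the Arntl-/- libraries at 24 and 6 h, whose depth ratio is 0.993, 15 of the 38 genes were lower and none was higher, against 4.94% and 4.67% of all genes, with a median of -0.51.

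Between genotypes the biogenesis list was spread to both sides. No gene passed 1.5-fold at 0 h, where 1.74% of all genes were higher and 1.34% lower, and at 24 h 1 was lower, against 1.78% of all genes, namely Gar1 (-0.71), a protein of the H/ACA snoRNPs. At 48 h, where 4.19% of all genes were lower and 3.43% higher, Gar1 (-0.66), Nop14 (-0.64), Nop58 (-1.10) and Rrs1 (-0.66) were lower in Arntl-/- BMDMs, and Nop2 (0.65), Polr1b (0.91) and Taf1d (0.73) were higher, with a list median of -0.04. Of 23 regulators of translation 20 passed the filter, and these had medians near 0, of 0.04, 0.11 and 0.08 at 6, 24 and 48 against 0 h in WT and -0.03, 0.09 and 0.02 in Arntl-/-. The filter reads WT libraries alone and left out Eef2k, Eif4ebp3 and Mycn. Mycn, a relative of Myc, was at 60.7 FPKM in the Arntl-/- library at 48 h, on 202 reads, and had at most 6 reads in any other library. Of the 20, Myc, the transcription factor that drives ribosome production, was lower in Arntl-/- at 24 h (-0.62) and at 48 h (-1.54). Myc was at 161, 182, 50.2 and 92.8 FPKM in WT and at 133, 148, 32.7 and 31.9 FPKM in Arntl-/- BMDMs. Eif4ebp2, which encodes a repressor of cap-dependent translation, was higher at 48 h (0.59), on 149 FPKM in WT and 224 FPKM in Arntl-/- BMDMs. Pdcd4, a repressor of the helicase eIF4A, was higher at 24 against 0 h in both genotypes, by 1.63 in WT and 1.44 in Arntl-/-.

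**Figure D5:**
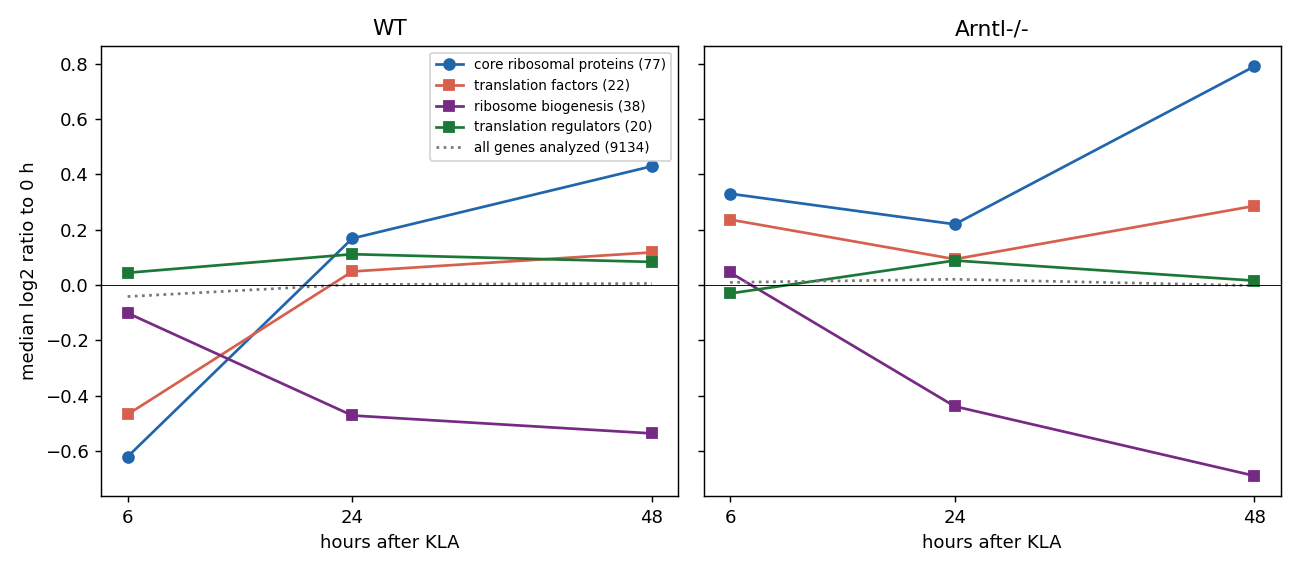
Median log2 ratio to 0 h of the core ribosomal proteins and of 3 lists of genes that work with the ribosome, against hours after KLA in WT (left) and Arntl-/- (right) BMDMs, with 1 library per time. The ribosome biogenesis list reaches -0.54 in WT and -0.69 in Arntl-/- at 48 h, while the core ribosomal proteins reach 0.43 and 0.79.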

How the data were processed

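Expression was measured by polyA RNA-seq in 8 libraries of mouse BMDMs, 1 per genotype and time. STAR was used by the authors for alignment of the paired-end reads to mm9, and HOMER for counting on exons of RefSeq transcripts regardless of strand, with a limit of 3 tags at a position and 1 transcript retained for a gene. The deposited values are FPKM, scaled by the authors to 10000000 reads per library. The labels also mention DESeq2 normalization of counts, which these values do not carry. Of 12 value columns, 4 belong to no labelled sample and were not used, and 1 fragment of a line was left out.

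FPKM times exon length in kilobases is a whole multiple of what 1 read is worth for at least 99.98% of the low values (within the rounding of the table plus 0.02 of a read), which gave each library's reads, 8587560 to 27036783. Size factors by the median of ratios (0.918 to 1.13) were taken out and the values compared as log2(FPKM + 0.1), a scale that understates changes of low genes. Genes with at least 100 scaled FPKM x kb at 1 or more WT times were analyzed (9134). Differences of at least 1.5-fold were counted. With 1 library per condition no test was run and precision is known for counting error only. The named genes were the 5 most abundant core genes, the 2 highest and 2 lowest in each comparison between genotypes and at 6 against 0 h, those with the 3 highest and 3 lowest mean ratios between genotypes, all core and list genes past 1.5-fold between genotypes, and all paralogs, except some genes that are not reported here. Genes named for a place within the set over the KLA response, and list genes named for their course over it, were picked after their values were seen. The members and lists were chosen with earlier results of these data known. Start sequences were read from the mm9 genome at the deposited starts. The recovery of reads and the counting of changes were tested on simulated data. Alternatives were other scalings, pseudocounts, filters, a 1.2-fold limit, lowess corrections (fraction 0.3) for expression level and for exon length, and members under 1 read per base. The work used statsmodels 0.14.6, scipy 1.17.1 and matplotlib 3.10.9 with numpy 2.4.6 and pandas 2.3.3 under Python 3.11.15.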

Additional observations from a re-analysis of the deposited data

Results flagged for a closer look

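The core ribosomal protein genes moved in opposite directions between 0 and 6 h of KLA in the 2 genotypes. Their median log2 ratio was -0.62 in WT and 0.33 in Arntl-/- BMDMs, all 77 genes lying below 0 in WT and all 77 above 0 in Arntl-/-. The difference was not tested, since each condition has 1 library. The depth of the libraries moved the other way, with the 6 h library at 2.07 times the reads of the 0 h library in WT and at 0.851 times in Arntl-/-, and its part in the result was not tested. The 112 genes of like level and length had medians of -0.44 and 0.21. Relative to all genes, both core medians became smaller in size after the correction for expression level and kept their signs, as given in the next section.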

How the results depend on the processing

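The WT and Arntl-/- libraries can be paired by KLA time, but no paired test over the times was run. Within a time no pairing was possible, because the labels give no replicate numbers and each condition has 1 library. Values as deposited, upper-quartile scaling, pseudocounts of 0.01 and 1 FPKM and a filter on any library changed no direction of the medians relative to all genes. They also moved none beyond a 95% interval of the median over the core genes. These genes share libraries and are not replicates, so that interval holds the spread between genes and no variation between samples. With genes kept at 1 FPKM in 1 library, the core median relative to all genes was -0.019 between genotypes at 48 h (0.0058 as reported), so that its sign changed. It was -0.62 at 6 against 0 h in WT. After the correction for expression level the core median relative to all genes was -0.14, 0.16, -0.14 and 0.035 between genotypes at 0, 6, 24 and 48 h. It was -0.16, 0.045 and 0.055 at 6, 24 and 48 against 0 h in WT, and 0.13, 0.057 and 0.23 in Arntl-/-. It was -0.079 at 24 against 6 h in Arntl-/-, and the distance from the genes of like level and length at 48 against 0 h in WT turned to -0.0049. After the correction for exon length it was -0.24, 0.30 and -0.22 between genotypes at 0, 6 and 24 h, -0.37, 0.12 and 0.20 in WT, 0.14, 0.14 and 0.41 in Arntl-/-, and 0.0041 at 24 against 6 h in Arntl-/-, which was reversed. The 2 core genes under 1 read per base in every library, Rps15a and Rpl22, gave -0.23, 0.53, -0.17 and 0.073 between genotypes, -0.49, -0.010 (reversed) and 0.32 in WT, 0.26, 0.048 and 0.63 in Arntl-/-, and -0.20 at 24 against 6 h. Their distance from the genes of like level and length was reversed at 24 and 48 against 0 h in WT (-0.107 and -0.067) and at 24 h in Arntl-/- (-0.074). With a 1.2-fold limit 70, 77 and 62 core genes passed between genotypes at 0, 6 and 24 h, 8 and 70 at 24 and 48 against 0 h in WT, and 64 and 26 at 6 and 24 against 0 h in Arntl-/-, where 25.3%, 27.2%, 25.9%, 44.9%, 57.6%, 30.0% and 44.9% of all genes passed it. The cause of these changes was not tested. The absence of replicate libraries limits what these values show.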
